A study of Rattus norvegicus with 20 samples.

Results

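The vehicle group holds 5 of the 20 liver arrays of a rat study of the flame retardant PBDE-47 (a brominated diphenyl ether), and is described here as a baseline of the neonatal liver. Its members were taken by title, as the arrays named vehicle control replicates 1 to 5, and no measured value entered that choice. Dams of the outbred Wistar Han strain, Crl:WI(Han), were given corn oil alone by gavage, at 5 mL/kg each day from gestation day 6 to postnatal day 4, and a piece of frozen left lateral liver lobe was taken on postnatal day 4. The other 3 groups, also of 5 arrays each, had dams that received 0.1, 15 or 50 mg/kg of PBDE-47 per day in the same oil over the same days, so the vehicle livers share the gavage, the oil and the handling with them. Biotin-labelled RNA from 100 ng of total RNA per sample was hybridised to a 3' expression array of rat genes, and each value below is a log2 signal after robust multi-array averaging (RMA). The labels do not say whether each array is 1 pup, a pool or a litter, so an SD or a p-value here measures the spread between these arrays.

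At birth the rodent liver changes its work. Before birth it is a main site of blood formation and secretes alpha-fetoprotein beside albumin. After birth the hepatocytes take on glucose production, ammonia disposal and ketone formation from milk fat, while blood formation moves to marrow and spleen. Many enzymes of steroid, drug and bile acid metabolism are known to reach their adult level only at weaning or puberty, some of them in 1 sex only under the rhythm of growth hormone.

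The arrays were first set against their labels. The sex label reads female on every array, and the labels do not say whether it describes the dam or the pup. The Y-linked genes Eif2s3y and Uty had median signals of 9.04 (highest 9.48) and 9.07 (8.82 to 9.20) on the 5 vehicle arrays and ranges of 8.79 to 9.25 and 8.65 to 9.03 on the 15 dosed ones. Xist, the RNA that coats an inactive X chromosome, stayed between 2.57 and 3.46 on its 4 probe sets in vehicle and reached no more than 3.62 on dosed arrays. The X-linked relative Eif2s3 read much like Eif2s3y (median 9.07, highest 9.51), and a further probe set is annotated to both, so the Eif2s3y signal may not be of the Y copy alone. The bright Uty probe set and the Xist ones read unlike female livers, for vehicle and dosed arrays alike. A further Uty probe set (2.95 to 3.34) and the Sry one (4.13 to 4.40) were low, and no array of known sex was at hand for reference. Array medians lay between 5.61 and 5.64. The gap between the 3' and 5' probe sets of the beta-actin control, a sign of RNA integrity, was 2.00, 1.80, 2.32, 1.39 and 1.88 log2 units on vehicle replicates 1 to 5, within the dosed range of 1.22 to 2.43.

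Vehicle replicate 2 stands apart from the other 4 arrays by transcripts of skeletal muscle. The mean of 25 muscle genes was 4.26, 8.17, 4.10, 4.39 and 4.21 on replicates 1 to 5. Acta1, the actin of skeletal muscle, read 3.51, 12.23, 2.72, 4.44 and 3.46. The same transcripts occurred in all, with a muscle mean over 1 log2 unit above the lowest array, on 8 of the 20 arrays (1 vehicle, 3 at 0.1, 1 at 15 and 3 at 50 mg/kg). Myh1 was an exception, with signal on every vehicle array (10.39 to 10.93), and Pvalb and Myh4 were low on all of them.

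A level below which liver signal cannot be told from background was taken from 65 genes of brain, eye, testis, pituitary and other tissues that liver is not known to use. Their 87 probe sets had a median of 3.81 over the vehicle arrays, and the 95th percentile, 5.77, is called the tissue-foreign limit here. Above it lay 14949 of 31042 probe sets (48.2%), which covered 9385 of 14217 genes (66.0%). A gene counts by its brightest probe set, while the limit rests on all 87, which raises the gene share. About that share of any list is due above the limit. The limit is not a strict one, because 5 of the 65 genes had a mean above it: Npy (8.38), Lhb (6.65), Nrgn (6.37), Ldhc (6.31) and Gnat1 (5.80). A gene is shown by its brightest probe set that carries only that gene's symbol, and a rank is a rank of signal, since brightness also depends on how well the probes bind.

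**Figure D1:**
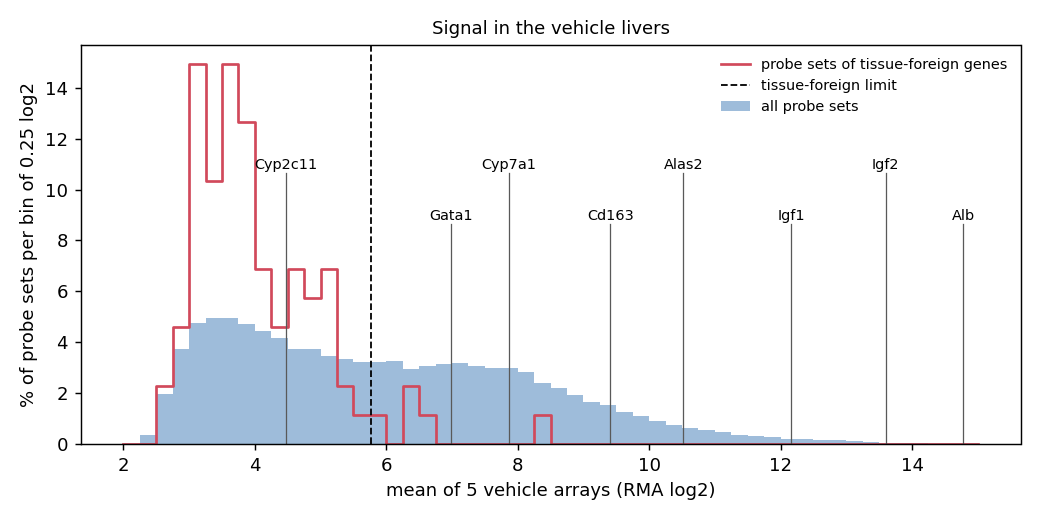
Share of probe sets (y axis, percent per bin) by mean signal over the 5 vehicle arrays (x axis, RMA log2), for all 31042 probe sets (bars) and for the 87 probe sets of tissue-foreign genes (red line). The dashed line is the limit of 5.77, and the marked genes run from Cyp2c11 (4.48), below the limit, to Alb (14.78) at the top of the scale.

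Plasma proteins made by hepatocytes led the signal. Alb, which encodes albumin, had the brightest probe set of the array, at 14.77, 14.78, 14.79, 14.76 and 14.79 on replicates 1 to 5 (14.78 ± 0.01, SD, n = 5). Afp, the fetal counterpart of albumin, came next among single genes at 14.28, 14.29, 14.30, 14.21 and 14.34 (14.28 ± 0.05). The arrays spanned 0.03 log2 units in Alb and 0.14 in Afp, but array signal can be compressed near the top of its scale, where a difference between livers then looks smaller than it is.

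The 2 genes lie beside each other on chromosome 14 and are read from the same strand. Their promoters are shown because these are the brightest hepatocyte genes of the neonatal and of the fetal program. Both come from RefSeq on the GRCr8 assembly, are 300 bases long and written 5' to 3' along the gene (chr14:17906930-17907229 and chr14:17875596-17875895, minus strand). Capitals mark 4 motifs. The first is TATAAA, searched on the gene's strand only. The others were searched on both strands. They are GTTAAT, which is part of the site known for the hepatocyte factor HNF1, the motif AGATAA of GATA factors, and the box CCAAT, which appears as ATTGG when it lies on the other strand. No matches overlap in the windows shown.
Alb: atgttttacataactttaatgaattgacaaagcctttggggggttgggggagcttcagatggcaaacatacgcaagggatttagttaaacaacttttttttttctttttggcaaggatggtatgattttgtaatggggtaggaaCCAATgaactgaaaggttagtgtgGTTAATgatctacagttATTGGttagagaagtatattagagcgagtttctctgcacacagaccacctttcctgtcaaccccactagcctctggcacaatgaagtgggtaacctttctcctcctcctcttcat
Afp: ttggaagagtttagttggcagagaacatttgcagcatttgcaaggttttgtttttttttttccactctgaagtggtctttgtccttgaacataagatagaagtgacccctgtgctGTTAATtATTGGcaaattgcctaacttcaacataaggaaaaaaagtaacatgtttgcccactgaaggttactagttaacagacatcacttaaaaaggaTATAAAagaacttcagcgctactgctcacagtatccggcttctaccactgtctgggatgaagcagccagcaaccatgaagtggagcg

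Both windows held GTTAAT and CCAAT, and the Afp window also held TATAAA. The motif GTTAAT was in the promoters of 8 of 26 genes of the plasma protein list (30.8%), against 7.4% of 27457 promoters of all genes. TATAAA was in 23.1% of them and in 9.1% of all, and CCAAT in 34.6% of them and 37.7% of all. A match is a description of letters and shows no binding. The windows are as annotated in RefSeq, and their gene starts were not checked. A window can thus hold transcribed or coding bases.

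Of the 30 brightest genes 19 were on the list of 31 plasma proteins, of which 29 were measured, all of them above the limit with a median of 14.01. The carriers and inhibitors among them were Ahsg (14.27 ± 0.05), which encodes fetuin-A, the protease inhibitor Serpina1 (14.26 ± 0.02), the thyroxine and retinol carrier Ttr (14.17 ± 0.07), the vitamin D carrier Gc (14.01 ± 0.03) and antithrombin, from Serpinc1 (13.73 ± 0.05). The 3 fibrinogen chains Fgg, Fga and Fgb had 14.13 ± 0.09, 14.05 ± 0.11 and 14.01 ± 0.15. Apolipoproteins were Apoa1 (14.10 ± 0.03), Apob (14.09 ± 0.04), Apoe (14.07 ± 0.04), Apoh, Apoc3 and Apoc1. Some of these genes had other probe sets that were far lower. Read from the median of its probe sets, Fgb had 4.16, Apoe 8.96 and Apob 10.85.

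The lowest plasma protein genes were Apoa4 (6.73 ± 0.40) and Apoa2 (11.42 ± 0.37), an apolipoprotein of chylomicrons and one of high-density lipoprotein. Apoa2 read 10.86, 11.37, 11.67, 11.35 and 11.83, lowest on replicate 1. Probe sets that the annotation gives to several genes were also among the brightest, at signal ranks 3, 4 and 5. The first, of Tf and Srprb, had 14.50, and the others, of the alpha-globin genes Hba-a1 and Hba-a2, had 14.44 and 14.42.

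Outside that list the 30 brightest genes were the further secreted proteins Hp (14.26 ± 0.09), which binds free hemoglobin, Itih4, Pzp and the selenium carrier Selenop, the imprinted H19 (14.14 ± 0.06), beta-globin from Hbb (14.09 ± 0.08), the alcohol dehydrogenase gene Adh1c, the ribosomal protein gene Rps29, the metallothionein gene Mt2A (13.70 ± 0.06) and 2 mitochondrial genes. These were COX2 and COX1, subunits of cytochrome oxidase, with 14.16 ± 0.04 and 13.96 ± 0.38. COX1 read 13.53 and 13.57 on replicates 1 and 5 and 14.23 to 14.25 on the other 3, the widest spread of the 30. Among the 100 brightest genes were 27 of the plasma protein list, 15 ribosomal protein genes and 4 cytochrome P450 genes (Cyp3a2, Cyp2d2, Cyp2e1 and Cyp2c23). The median SD of these 100 genes was 0.09, against 0.16 for all probe sets above the limit.

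Regulators that define the hepatocyte were present. Of 15 measured genes of that list 14 lay above the limit, with a median of 8.76. The nuclear receptor Hnf4a (11.84 ± 0.16), the leucine zipper factors Cebpa (10.46 ± 0.16) and Cebpb (10.18 ± 0.29), and Prox1 and Onecut1, which act in liver growth, were the brightest. The bile acid receptor Nr1h4 (9.76 ± 0.20) and the drug receptors Nr1i2 (8.44 ± 0.16) and Nr1i3 (7.64 ± 0.45) were above the limit as well. Foxa1, a pioneer factor of endoderm, was the exception at 4.71, 5.99, 5.90, 5.84 and 6.04, with a mean of 5.70. Replicate 1 was its only array below the limit. With replicate 1 or replicate 4 left out, and the limit taken anew, all 15 genes were above it.

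Many genes known from the fetal liver were bright on postnatal day 4. Of 18 measured members 15 lay above the limit, with a median of 8.92. Next to Afp and H19 stood Igf2 (13.60 ± 0.03), the fetal growth factor, the imprinted Meg3 (12.77 ± 0.24), Grb10 (11.64 ± 0.26) and Mest (10.61 ± 0.08), and the RNA-binding protein gene Igf2bp3 (10.28 ± 0.12). Gpc3, a fetal proteoglycan, read 9.83, 8.97, 8.97, 9.05 and 8.75, highest on replicate 1. Others of the list had low signal: Dlk1, a marker of the hepatoblast, at 6.27 ± 0.45, and below the limit Igf2bp1 (5.45 ± 0.12), Hmga2 (3.69 ± 0.08) and Peg10 (3.08 ± 0.12). The series holds no fetal or adult liver, so a change with age was not measured. No member of the list had an SD over 0.5.

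The genes of adult liver divided by kind. In the list of enzymes whose adult level depends on sex, 11 of 22 measured genes were at or below the limit, with a median of 5.52. In the list of other adult metabolic genes 40 of 44 were above it, with a median of 10.44. Cyp2c11, the main male-specific P450 of adult rat liver, read 4.53, 4.61, 4.47, 4.44 and 4.36 (4.48 ± 0.10), within the range of the tissue-foreign genes on all 5 arrays. Cyp2c12, its female-specific counterpart, read 10.16, 10.00, 9.19, 9.26 and 9.78 (9.68 ± 0.44), above the limit on each array.

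The promoters of this pair are shown because their genes lay on opposite sides of the limit in the same livers. Both are RefSeq windows of 300 bases on GRCr8 (chr1:246174966-246175265, plus strand, and chr1:248676985-248677284, minus strand), with the same motifs in capitals.
Cyp2c11: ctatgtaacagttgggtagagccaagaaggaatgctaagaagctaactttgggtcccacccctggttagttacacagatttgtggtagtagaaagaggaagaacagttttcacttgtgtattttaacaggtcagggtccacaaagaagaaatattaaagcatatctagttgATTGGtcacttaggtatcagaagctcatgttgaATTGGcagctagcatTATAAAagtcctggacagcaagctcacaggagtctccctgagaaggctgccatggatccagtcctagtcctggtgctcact
Cyp2c12: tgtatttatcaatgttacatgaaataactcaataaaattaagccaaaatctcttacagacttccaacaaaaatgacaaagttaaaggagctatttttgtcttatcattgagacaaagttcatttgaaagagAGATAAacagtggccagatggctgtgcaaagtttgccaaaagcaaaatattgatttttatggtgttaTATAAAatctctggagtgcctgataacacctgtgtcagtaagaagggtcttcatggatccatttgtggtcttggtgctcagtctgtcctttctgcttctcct

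Both windows held TATAAA. The Cyp2c11 window also held CCAAT on the other strand, at 2 places, and that of Cyp2c12 held AGATAA. The motif GTTAAT was in neither.

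Further genes at background in this list were the pheromone carriers Mup5 (2.86 ± 0.08) and Obp3 (3.14 ± 0.13), the sulfotransferase genes Sult2a1 (2.56 ± 0.07), Sult2a2 (2.95 ± 0.13) and Sult1e1 (3.18 ± 0.10), Hsd3b5 (3.21 ± 0.18), Cyp3a9 (3.65 ± 0.07), A1bg (4.51 ± 0.24) and Cyp2c13 (5.16 ± 0.43). Cyp2c7 read 4.46, 4.52, 4.17, 5.70 and 4.84, nearest to the limit on replicate 4. Bright members of the list were Cyp3a2 (13.57 ± 0.06), Sult2a6 (12.61 ± 0.10), Cyp2c22 (11.50 ± 0.49), the estradiol dehydrogenase gene Hsd17b2 (11.36 ± 0.24) and Cyp2a1 (11.10 ± 0.21). The prolactin receptor gene Prlr had 8.44 ± 0.51. Near-identical members of the Cyp2c, Cyp3a and Sult2a families may share probe binding, so the signal of a single member is uncertain.

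**Figure D2:**
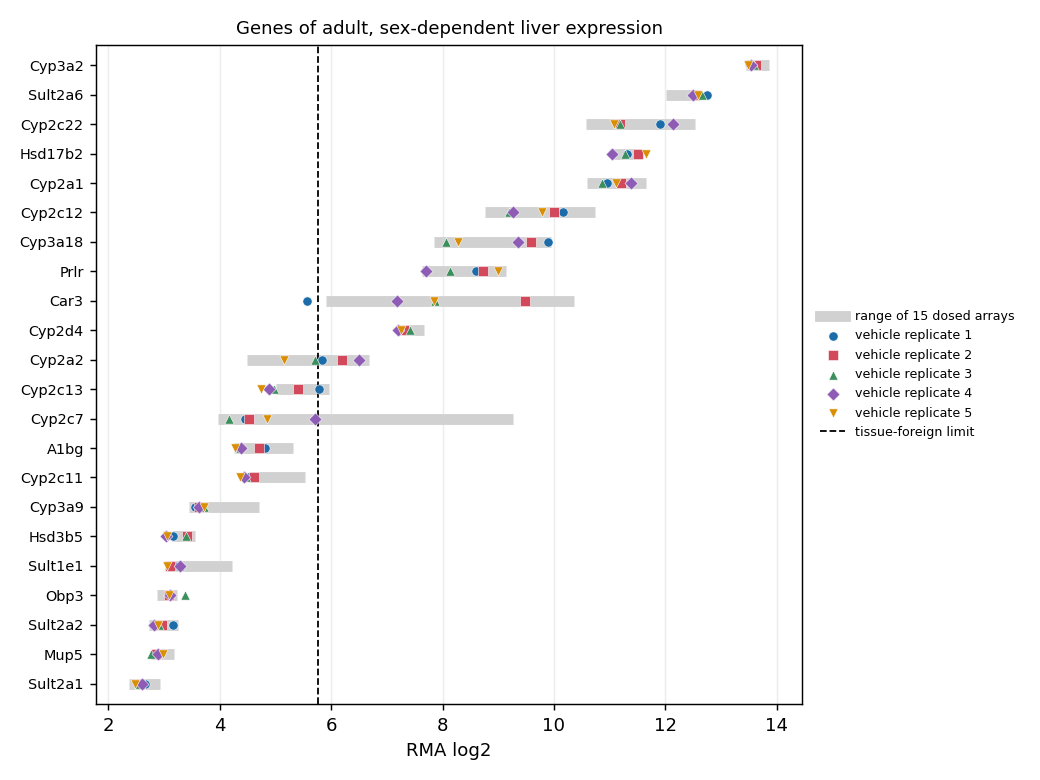
RMA log2 signal (x axis) of the 22 measured genes of sex-dependent adult liver expression on the 5 vehicle arrays (coloured points), with the range of the 15 dosed arrays (grey bars) and the tissue-foreign limit of 5.77 (dashed line). Cyp3a2 to Cyp2a2 have means above the limit and Cyp2c13 to Sult2a1 at or below it.

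Of the other adult genes, 4 were below the limit: Hao2 (3.70 ± 0.21), an oxidase of hydroxy acids, Glyat (4.33 ± 0.39), which joins glycine to benzoate, the methyltransferase gene Inmt (4.43 ± 0.12) and Adh4 (4.77 ± 0.71). Dio1, which activates thyroxine, was just above at 5.98 ± 0.45. Genes with a known late rise were above the limit but unequal between arrays. Tdo2, which starts tryptophan breakdown, read 7.24, 7.58, 7.07, 7.94 and 9.02. Cyp7a1, which starts the conversion of cholesterol to bile acids, read 7.31, 8.51, 8.23, 7.64 and 7.60. Cyp1a2 had 7.01, 7.89, 7.57, 7.73 and 9.09 and the corticosteroid carrier gene Serpina6 had 7.22, 7.63, 7.09, 7.06 and 8.36. Tdo2, Cyp1a2 and Serpina6 were each highest on replicate 5, and Cyp7a1 on replicate 2.

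Hormone and transport genes of the adult liver were on. Igf1, the growth factor that takes over from Igf2 after birth, had 12.16 ± 0.24, its plasma partner Igfals 8.57 ± 0.35 and the growth hormone receptor gene Ghr 9.86 ± 0.31. The bile acid importer Slc10a1 (12.80 ± 0.12) and exporter Abcb11 (11.16 ± 0.29) were bright. Hamp, the iron hormone hepcidin, had 11.26 ± 0.32, and Tat, a tyrosine aminotransferase that rises after birth, 10.18 ± 0.42. The brightest 3 of the list were the P450 genes Cyp2e1 (13.18 ± 0.25) and Cyp2c23 (12.93 ± 0.22) and the calcium-binding lactonase gene Rgn (13.08 ± 0.13).

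Pathways that serve the suckling animal were above the limit throughout. All 8 urea cycle genes were, with a median of 11.99 and Cps1, the entry enzyme, at 13.39 ± 0.09. So were all 8 of gluconeogenesis (median 10.36), led by Fbp1 (13.51 ± 0.07) and Pck1 (13.36 ± 0.13), and all 16 of fatty acid oxidation and ketone formation (median 11.15), with Fabp1 (13.38 ± 0.09) and Cpt1a (11.90 ± 0.20). Of lipogenesis 12 of 15 were, and the exceptions were Scd (4.81 ± 0.72), the desaturase that makes oleate, Pnpla3 (4.05 ± 0.25) and Thrsp (3.77 ± 0.24), 3 genes that carbohydrate feeding is known to induce. Scd read 6.05 on replicate 1 and 4.24 to 4.75 on the other 4. The cholesterol list had all 19 genes above the limit, with a median of 9.04.

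Genes of both ends of the liver lobule were measured. Of the periportal list all 12 were above the limit (median 11.30), and of the pericentral list 7 of 10 (median 8.50), near the 66.0% of all genes. Glul, the glutamine synthetase of pericentral cells, had 11.13 ± 0.04. The other pericentral genes Tbx3 (5.69 ± 0.20), Lgr5 (4.34 ± 0.27) and the glutamate transporter gene Slc1a2 (3.73 ± 0.21) were below the limit. Bulk signal does not show where in the lobule a gene was on, and fewer cells of a type cannot be told apart from less RNA per cell.

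Genes of red cell formation were bright. Of 33 measured erythroid genes 29 were above the limit, with a median of 9.18, and a single one, Hbb, was among the 100 brightest genes. Alas2, the first enzyme of heme synthesis in red cells, read 10.77, 10.38, 10.74, 10.48 and 10.24. Gata1, the master regulator of red cell and platelet precursors, read 7.14, 6.87, 7.50, 6.84 and 6.62, above the limit on all 5 arrays. Klf1 (9.18 ± 0.43), a globin gene activator, Ahsp (11.77 ± 0.36), a chaperone of alpha-globin, Cpox (11.52 ± 0.40) and Fech (11.01 ± 0.23) of the heme pathway, the transferrin receptor gene Tfrc (11.96 ± 0.33) and the anion exchanger gene Slc4a1 (10.29 ± 0.43) were bright, and most of these genes are known for developing red cells.

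The embryonic globin genes Hbz (3.37 ± 0.18), Hbe1 (4.54 ± 0.15) and Hbg1 (4.60 ± 0.50) were below the limit, as was the spectrin gene Sptb (5.60 ± 0.10), and Hbe2 was just above at 6.20 ± 0.19. The globin genes are near-identical copies in part, so signal of a single copy is uncertain. The promoters of Alas2 (chrX:22895200-22895499, plus strand) and Hbb (chr1:167663672-167663971, minus strand) are shown, again as 300-base RefSeq windows on GRCr8, as those of a heme and of a globin gene of the lineage. Capitals mark the same 4 motifs.
Alas2: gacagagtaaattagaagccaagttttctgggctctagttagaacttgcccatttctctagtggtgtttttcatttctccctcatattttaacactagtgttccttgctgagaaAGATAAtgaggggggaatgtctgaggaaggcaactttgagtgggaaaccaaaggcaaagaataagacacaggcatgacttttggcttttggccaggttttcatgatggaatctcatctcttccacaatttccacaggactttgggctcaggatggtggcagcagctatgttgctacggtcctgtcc
Hbb: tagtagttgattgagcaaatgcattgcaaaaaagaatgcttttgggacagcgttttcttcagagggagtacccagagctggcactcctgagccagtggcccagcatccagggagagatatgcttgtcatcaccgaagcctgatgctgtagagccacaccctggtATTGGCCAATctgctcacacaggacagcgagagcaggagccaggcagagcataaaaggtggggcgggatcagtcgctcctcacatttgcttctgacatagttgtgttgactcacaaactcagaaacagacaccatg

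The Alas2 window held AGATAA and the Hbb window held CCAAT on both strands, side by side. Whether the AGATAA of Alas2 lies upstream of the start of transcription was not tested. AGATAA was in the promoters of 9 of 31 erythroid genes (29.0%), against 11.3% of all promoters and 1 of 26 in the plasma protein list (3.8%). CCAAT was in 18 of the 31 (58.1%), GTTAAT in 1 (3.2%) and TATAAA in 5 (16.1%). All 5 with TATAAA were globin genes (Hba-a1, Hba-a2, Hba-a3, Hbb-b1 and Hbb-bs), and each of them also held CCAAT. Globin copies can have like promoters, so these 2 percentages count 1 gene family several times.

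The erythroid genes shared much of their order over the vehicle arrays. Their mean was 9.01, 8.70, 9.14, 8.66 and 8.46 on replicates 1 to 5. Of the 33 genes 25 were lowest on replicate 5, and 20 were highest on replicate 3. The dosed arrays covered 7.73 to 9.56, so the vehicle arrays lie inside their range. Cell cycle genes shared the high end of that order but not the low end. All 24 were above the limit (median 8.61), 21 were highest on replicate 3, and 15 were lowest on replicate 2 and 6 on replicate 5. Mcm4, of the helicase that opens DNA for copying, read 9.23, 9.08, 9.64, 9.12 and 9.25, and Mki67, a marker of dividing cells, read 10.59, 10.15, 10.93, 10.43 and 10.02. Bulk RNA does not show which cells were dividing.

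Other blood lineages were unequal. Megakaryocyte and platelet genes were above the limit in 8 of 9 cases (median 7.64), with the platelet chemokine Pf4 at 10.17 ± 0.35 and Itga2b at 7.76 ± 0.27. Of the neutrophil genes 8 of 12 were (median 9.22), a share near the 66.0% of all genes. The granule and defensin genes Defa5 (13.26 ± 0.34), Np4 (12.95 ± 0.34) and Camp (10.43 ± 0.31) and the calprotectin pair S100a9 (12.83 ± 0.32) and S100a8 (12.53 ± 0.40) were bright, while receptors of the mature cell, Csf3r (4.82 ± 0.47) and Cxcr2 (3.62 ± 0.31), were below the limit. Of the 12 genes 10 were lowest on replicate 2, and the list mean ran from 8.27 there to 9.23 on replicate 4.

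Stem and progenitor genes were above the limit in 6 of 9 cases (median 6.81), near the 66.0% of all genes. Meis1 (8.46 ± 0.11), Lmo2 (8.56 ± 0.23) and Runx1 (6.81 ± 0.32) had signal, while Kit (3.43 ± 0.08), Gata2 (4.46 ± 0.10) and Flt3 (4.68 ± 0.14), markers of early progenitors, were below the limit. Of 5 B cell genes 3 were above it, also near the share of all genes, and the highest was Cd22 (6.50 ± 0.30). Ms4a1 (4.94 ± 0.25) and Cd79b (5.12 ± 0.13) of the mature B cell were below. Of 16 T and NK cell genes 2 were above, Nkg7 (7.69 ± 0.57) and Lck (6.03 ± 0.08), with the T cell receptor genes Cd3e (4.39 ± 0.12) and Cd3d (3.75 ± 0.09) at background.

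Mast cell and eosinophil genes were mostly low, with 4 of 14 above the limit. Prg2 and Epx, which encode eosinophil granule proteins, were among them. Prg2 read 7.05, 9.17, 9.19, 9.41 and 9.28, and Epx read 5.73, 7.89, 7.92, 8.15 and 7.99. Both were low on replicate 1, and each was nearly level over the remaining 4 arrays. Hdc, which makes histamine and is on the same list, was above the limit on all 5 arrays. It read 9.34, 6.56, 8.82, 7.32 and 7.42, highest on replicate 1, unlike Prg2 and Epx. The mast cell genes Mcpt4 (2.94 ± 0.19) and Fcer1a (2.98 ± 0.12) were at background.

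The resident cells of the liver sinusoid were all represented. Kupffer cells are its macrophages, and all 13 of their genes were above the limit (median 10.40): the lysozyme gene Lyz2 (12.72 ± 0.27), the complement genes C1qa (10.99 ± 0.02) and C1qb (10.40 ± 0.19), the iron exporter Slc40a1 (11.20 ± 0.11), the lectin Clec4f (10.67 ± 0.25) and the hemoglobin receptor Cd163 (9.41 ± 0.19). Of the endothelial list 15 of 16 were (median 8.29), with the scavenger receptors Lyve1 (10.72 ± 0.21) and Stab2 (10.33 ± 0.29) of sinusoidal cells and Kdr (9.90 ± 0.17). Stab2 read 9.81 on replicate 1 and 10.35 to 10.51 on the other 4. Of 22 genes of stellate cells and fibroblasts 19 were (median 8.23), with Reln (10.81 ± 0.18), Col3a1 (12.09 ± 0.20) and Lrat (8.72 ± 0.38), which stores vitamin A as esters.

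Bile duct genes were weaker, with 4 of 10 above the limit. Krt19, a keratin of duct and surface cells, read 6.43, 7.46, 6.60, 5.92 and 7.54, and Epcam had 8.06 ± 0.27, while Cftr (3.28 ± 0.13) was at background. Of 5 genes of the mesothelium, the covering of the organ, 4 were above the limit, led by Lrrn4 (7.78 ± 0.36).

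Markers of neighbouring organs were mostly at background. Of 20 exocrine pancreas genes 2 were above the limit, Cela1 (10.51 ± 0.39) and Cpb1 (6.94 ± 0.28), and the digestive enzymes Prss1 (3.12 ± 0.11) and Amy2a3 (2.68 ± 0.16) were not, although the dosed arrays reached 6.51 and 7.13 for them. Of 13 stomach and intestine genes 1 was above, Fabp2 (6.89 ± 0.43), and of 13 genes of adrenal, kidney and lung 1, the steroid hydroxylase gene Cyp17a1 (12.43 ± 0.28), while the adrenal enzyme Cyp11b1 (2.94 ± 0.12) was not. Of 8 fat genes Lpl (11.36 ± 0.29), Cidec, Fabp4 and Cfd were above and Adipoq (4.13 ± 0.13) and Lep (3.70 ± 0.18) below.

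**Figure D3:**
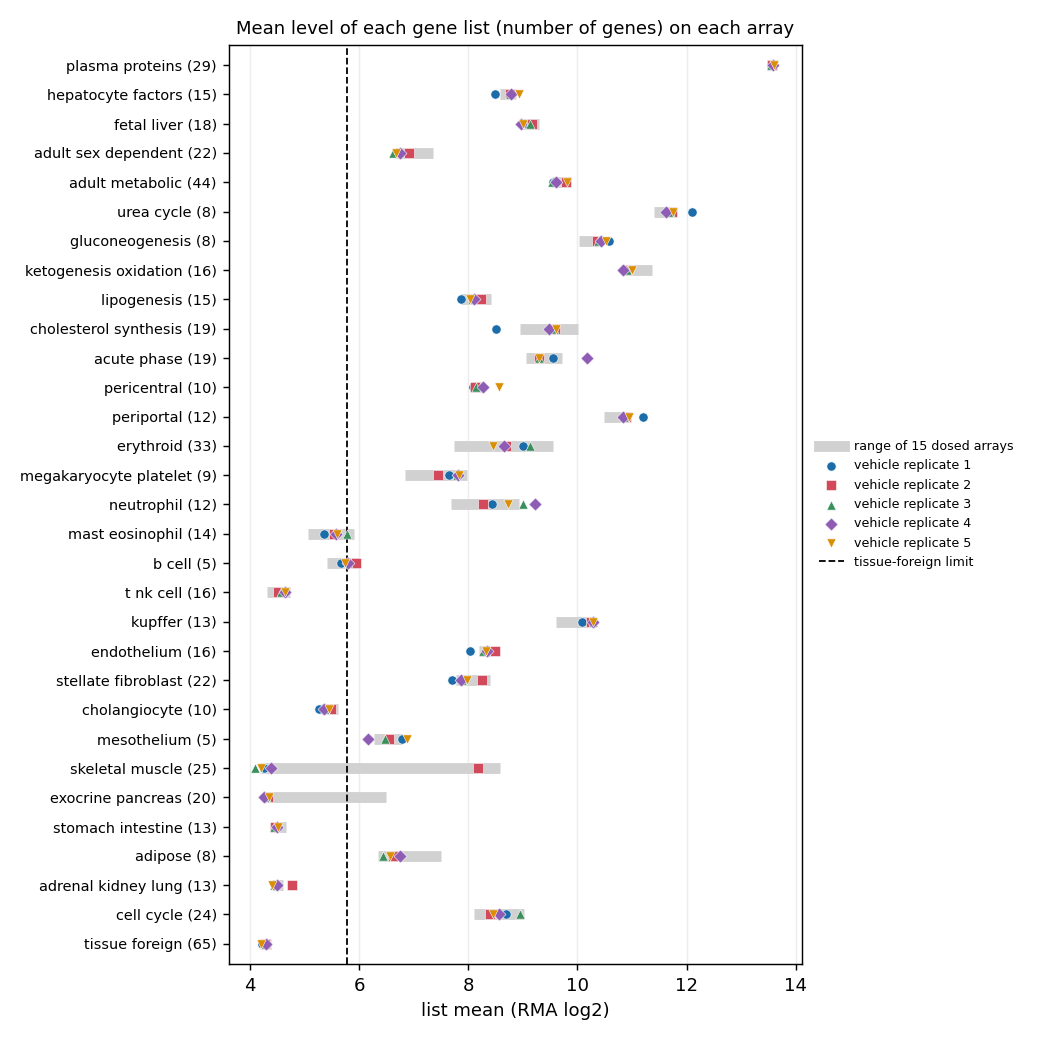
Mean RMA log2 signal (x axis) of the genes of 31 of the 35 lists (y axis, number of genes in brackets) on each of the 5 vehicle arrays (coloured points), with the range of the 15 dosed arrays (grey bars) and the tissue-foreign limit (dashed line). Replicate 2 is alone at 8.17 in the skeletal muscle list, replicate 1 alone at 8.50 in the cholesterol synthesis list, and replicate 4 highest, at 10.17, in the acute phase list.

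The 5 vehicle arrays were alike for most genes. Pairs of arrays had a correlation of 0.9697 to 0.9847 across the 14949 probe sets above the limit, a description over genes that share the arrays. Between 83 of these probe sets (replicates 3 and 4) and 349 (replicates 1 and 5) differed by more than 1 log2 unit. Of the 14949 probe sets above the limit 379 (2.54%) had an SD over 0.5, and 42 had one over 1. Replicate 1 was the array farthest from the median in 143 of the 379 (37.7%), replicate 5 in 89, replicate 4 in 65, replicate 2 in 59 and replicate 3 in 23. A wide spread was found in 292 probe sets without replicate 1, and in 435, 483, 481 and 400 without replicates 2, 3, 4 and 5.

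Muscle genes led the list of the 30 widest genes, all through replicate 2. Myl11, a light chain of fast muscle myosin, read 4.40, 11.56, 4.53, 4.99 and 4.67. Where an array is at or below the limit, a fold is a lower bound against the limit of 5.77, and the bound was at least 55.5-fold for Myl11. It was at least 32.6-fold for Cox8b, 42.4-fold for Tnnc2, 18.4-fold for Tnni2, 13.9-fold for Mybpc1 and 9.09-fold for Sln, and Fabp3, Eno3, Cryab and Des followed. Myl11, Cox8b, Tnni2, Mybpc1, Sln and Eno3 were above the limit on replicate 2 alone, so that array put them on the list. Each of these 10 was highest on replicate 2 and far lower on the other 4 arrays. Col1a2, a fibroblast collagen, was also highest there (11.00, against 9.98 to 10.25). Of the 30 genes 19 stayed among the widest without replicate 2, and 23 to 25 without any other array.

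Replicate 4 stood out by genes of the acute phase response. Lcn2, an iron-trapping protein of liver and neutrophils, read 9.43, 9.31, 10.22, 13.02 and 9.86. Orm1, a plasma glycoprotein, read 11.06, 8.88, 8.71, 11.69 and 8.97, and the neutrophil chemokine Cxcl1 read 9.06, 7.66, 7.07, 10.25 and 6.93. Replicate 4 was highest in all 3, and replicate 1 second in Orm1 and Cxcl1. Of the 19 acute phase genes 16 were highest on replicate 4, among them A2m (13.89, against 13.37 to 13.46) and Serpina3n (13.39, against 12.33 to 12.57). The list mean was 10.17 there and 9.29 to 9.55 on the other vehicle arrays, and no dosed array exceeded 9.72. Replicate 4 also had the highest neutrophil list mean, and the part of neutrophil RNA in these values was not tested.

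Replicate 1 stood out by metabolism. The mean of the cholesterol synthesis list was 8.50 on it, 9.48 to 9.60 on the other vehicle arrays and 8.94 to 10.01 on the dosed ones, and 18 of the 19 genes were lowest on it. Msmo1, a sterol oxidase, read 8.31, 11.07, 10.92, 10.63 and 10.83. Sqle, the squalene epoxidase, read 7.56, 9.49, 9.59, 9.27 and 9.28. Srebf2 and Srebf1, of the SREBP family known to activate such genes, were low on it too. They had 7.49 (8.32 to 8.39 elsewhere in vehicle) and 7.61 (9.36 to 9.50), and the fatty acid synthase gene Fasn had 7.81 (9.30 to 9.59). The lipogenesis list was split, with 8 of its 15 genes lowest on replicate 1 and 5 highest, among them Scd (6.05). The part of the SREBP factors in these values was not tested.

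Urea cycle genes ran the other way from cholesterol genes on replicate 1. Arg1, the last enzyme of the cycle, read 13.53, 12.21, 12.29, 12.43 and 12.34, and 6 of 8 genes were highest on replicate 1, whose list mean was 12.10 against 11.62 to 11.75. The transaminase gene Got1 read 11.73 on it and 10.54 to 10.86 on the others. Fgf21, a hepatic hormone of fasting and milk feeding, read 5.85, 7.96, 8.69, 9.74 and 7.66, and Car3, a carbonic anhydrase, 5.57, 9.48, 7.87, 7.18 and 7.84, both lowest there. Some cell type lists were low on replicate 1 too: 12 of 16 endothelial and 13 of 22 stellate and fibroblast genes were lowest on it. The share of all genes lowest on replicate 1 is not given, so these counts are not particular to the cell types. Whether cell content bears on the metabolic genes was not tested.

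Further wide genes are given singly. Abhd3, a phospholipase, read 3.50, 3.34, 9.55, 5.52 and 8.50, with 3 arrays below the limit and 2 far above it, at least 13.8-fold. The class I and class II histocompatibility genes RT1-CE10 (6.28 to 9.19), RT1-Bb (4.46 to 7.50) and RT1-T24-4 (6.42 to 8.74) were wide as well. RGD1309362 read 4.09 on replicate 3 and 6.05 to 6.79 on the others. Hdc, of the mast cell and eosinophil list, read 9.34, 6.56, 8.82, 7.32 and 7.42. Acot1, a thioesterase of fatty acid oxidation, read 10.73, 8.64, 10.63, 8.50 and 8.14. Hdc and Acot1 were both highest on replicates 1 and 3.

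The remaining wide genes were Krt10 (6.32 to 9.28), the glutathione transferase gene Gstp3 (9.42 to 11.66), the leptin receptor gene Lepr (5.07 to 7.71), Fer1l5 (5.50 to 7.79) and the mitochondrial carrier gene Slc25a25 (8.12 to 10.33). Early response genes were a further source of spread. Dusp1, a phosphatase of stress signals, read 8.36, 8.73, 9.10, 8.95 and 10.64, and Egr1 8.38, 10.01, 9.20, 9.75 and 10.58. Of 15 such genes 9 were highest on replicate 5, and Fos, Fosb and Egr2 were below the limit on all 5 arrays.

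**Figure D4:**
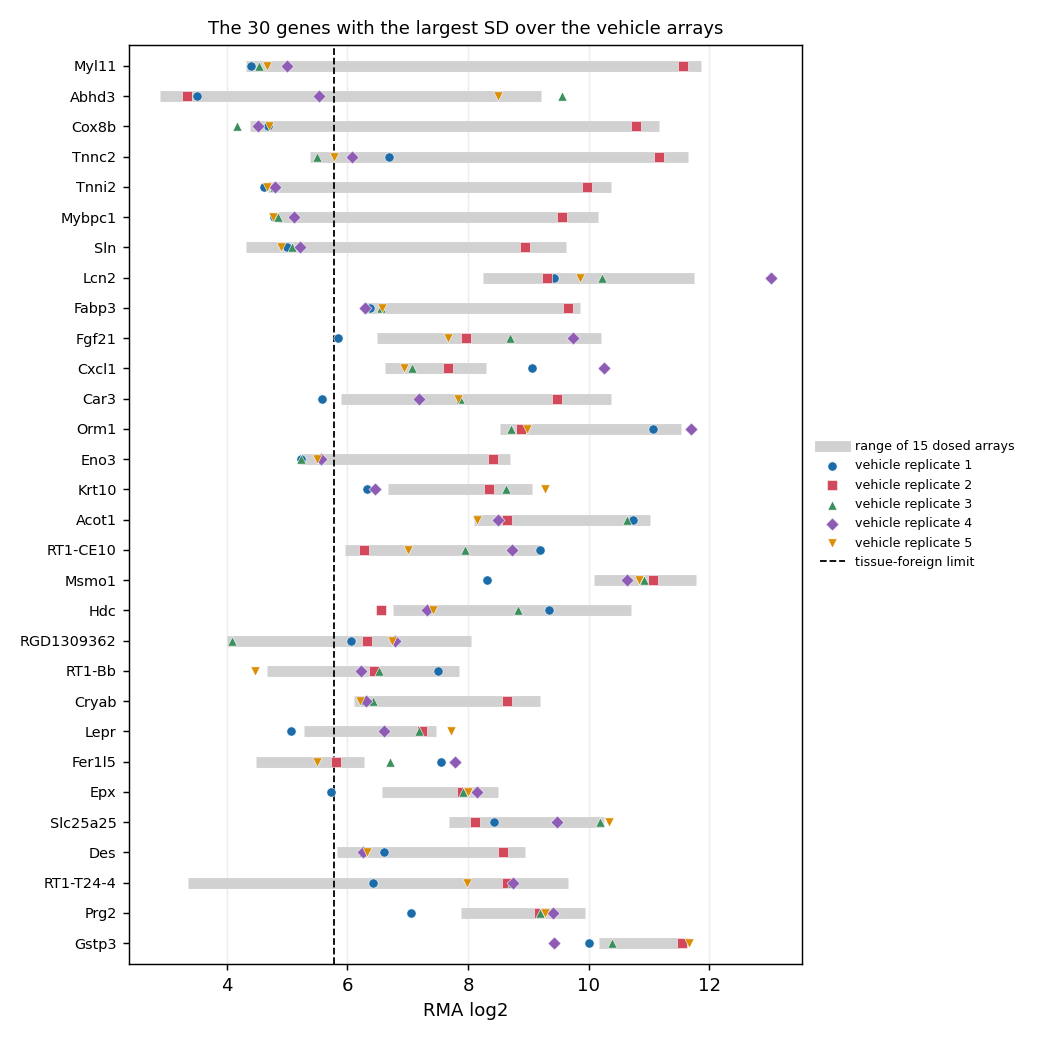
RMA log2 signal (x axis) of the 30 genes with the largest SD over the 5 vehicle arrays among genes above the tissue-foreign limit (dashed line), with 1 coloured point per array and the range of the 15 dosed arrays as grey bars. The muscle genes from Myl11 to Des have replicate 2 alone at the right, Lcn2 has replicate 4 at 13.02, and Msmo1, Epx and Prg2 have replicate 1 alone at the left.

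Much of the spread in these genes occurred within the dosed groups too. Of the 30 widest genes 25 also had a pooled SD over 0.5 within the dosed groups (median 1.10, range 0.33 to 3.04). Over all 379 wide probe sets 156 did (41.2%), against 444 of the 14949 above the limit (2.97%). Each dosed group held somewhat more wide probe sets, 419, 438 and 510 at 0.1, 15 and 50 mg/kg against 373 in vehicle, counted over probe sets above the limit on the mean of all 20 arrays, while the median SD was 0.14 in each dosed group and 0.16 in vehicle. A test of the difference in spread called 12 of 31042 probe sets (0.0387%), all wider in vehicle. It used limma on each array's absolute deviation from its group mean, scaled up for the number of arrays in the group. Cxcl1 was 1 of the 12 (mean scaled deviation 1.06 log2 units larger than in the dosed groups, adjusted p = 0.0376 by limma with Benjamini-Hochberg adjustment). The count was 0 with deviations from the group median (561 at an unadjusted p under 0.05), and it was 34, 127, 110, 140 and 33 without vehicle replicates 1 to 5.

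Against the doses, few baseline genes passed the test. The 3 comparisons share the same 5 vehicle arrays. Limma called 0 of 31042 probe sets at 0.1 mg/kg (0%, with 2134 at an unadjusted p under 0.05), 36 at 15 mg/kg (0.116%, 29 higher and 7 lower) and 290 at 50 mg/kg (0.934%, 182 higher and 108 lower). None of the 30 brightest and none of the 30 widest genes was called at any dose. That says little of the doses. At the shares called few calls are due among 30 genes, and the spread that picked the widest genes enters the test. Of the 9385 genes above the limit 20 were called at 15 and 189 at 50 mg/kg. The median change over all probe sets was 0.008, 0.013 and 0.009 log2 units at the 3 doses. Counts varied with single arrays. At 15 mg/kg 20, 22 and 23 probe sets were called without vehicle replicates 3, 4 and 5, and 16 and 14 without dosed replicates 4 and 5. At 50 mg/kg 180, 177 and 137 were called without vehicle replicates 2, 3 and 4, and 181, 106 and 152 without dosed replicates 3, 4 and 5. Without the 8 arrays that carried muscle transcripts, a fit chosen after seeing the data that kept 2 arrays at 50 mg/kg, the counts were 8 and 3.

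Of the 15 adult liver genes at or below the limit in vehicle, Cyp2c7 and Cyp2c11 were called higher at 15 and at 50 mg/kg, where 0.0934% and 0.586% of all probe sets were. Cyp2c7 read 3.96 to 5.05 at 0.1, 6.92 to 7.57 at 15 and 6.94 to 9.26 at 50 mg/kg, against 4.17 to 5.70 in vehicle, so the upper doses did not overlap with vehicle. The fitted difference was 2.52 log2 units at 15 (SE 0.34, adjusted p = 0.00252 by limma) and 3.21 at 50 mg/kg (SE 0.34, adjusted p = 4.9e-05 by limma). As vehicle was below the limit on each array, the bound against the limit is at least 2.82-fold at 15 and 4.55-fold at 50 mg/kg. The call at 15 mg/kg held in 19 of 19 fits. Cyp2c11 read 4.95 to 5.41 at 15 and 4.73 to 5.53 at 50 mg/kg, above every vehicle array (4.36 to 4.61) and yet below the limit on all dosed arrays. The test called it at both doses (adjusted p = 0.0212 and 0.00311 by limma), but no fold is given, since no group rose over the limit, and at 15 mg/kg the call was lost if vehicle replicate 3, 4 or 5 or dosed replicate 4 or 5 was left out.

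A few bright baseline genes were called at 50 mg/kg. Serpina7, the thyroxine carrier of plasma, read 12.19 to 12.40 in vehicle and 11.60 to 12.08 at that dose, and fell by 0.50 log2 units (SE 0.08, adjusted p = 0.00542 by limma). Pdk4, which holds pyruvate from oxidation, read 8.64 to 9.25 in vehicle and 10.00 to 10.25 at that dose (log2 change 1.04, SE 0.12, adjusted p = 7.3e-05 by limma). Me1, which makes NADPH for fat synthesis, read 6.48 to 7.04 and 7.35 to 7.98 (log2 change 0.83, SE 0.13, adjusted p = 0.00218 by limma). Of 13 Kupffer cell genes 5 fell (C1qb, C1qc, Cd163, Cd68 and Slc40a1), with a list median change of -0.36, where 0.348% of all probe sets were called lower. Other lists had low medians at this dose with none or 1 of their genes called: neutrophil -0.42, acute phase -0.35, mast cell and eosinophil -0.29, megakaryocyte -0.26, erythroid -0.22 and B cell -0.21. Their part in the Kupffer cell values was not tested. C1qb read 10.19 to 10.70 in vehicle and 9.69 to 9.93 at 50 mg/kg (log2 change -0.57, adjusted p = 0.00577 by limma). Cd163 read 9.11 to 9.65 and 8.72 to 9.12 (log2 change -0.48, adjusted p = 0.0212 by limma), and leaving out vehicle replicate 3 or 4 or dosed replicate 3 or 4 removed that call. C1qc, Cd68 and Slc40a1 each lost the call in 5 or more of the 10 fits that left out 1 array. Nfkbiz, a regulator of inflammatory genes, read 8.98, 8.14, 8.10, 9.19 and 8.28 in vehicle, highest on replicates 1 and 4 as was Cxcl1, and 7.37 to 7.60 at 50 mg/kg (log2 change -1.06, SE 0.21, adjusted p = 0.0167 by limma). Cyp2d4, Asl, Cpt2, Ehhadh and Pmvk were also called at that dose, and each lost the call in 6 or more of the 10 fits without 1 array. Without the arrays that carried muscle transcripts, in a fit with 2 arrays at 50 mg/kg, these genes and Cyp2c7 and Cyp2c11 were no longer called at that dose. The differences were then 0.94 for Pdk4, 0.66 for Me1, -0.60 for Serpina7, -0.53 for C1qb, -0.53 for Cd163 and -1.14 for Nfkbiz, and 2.38 for Cyp2c7 (adjusted p = 0.059 by limma), which stayed called at 15 mg/kg (2.44, adjusted p = 0.00623 by limma).

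**Figure D5:**
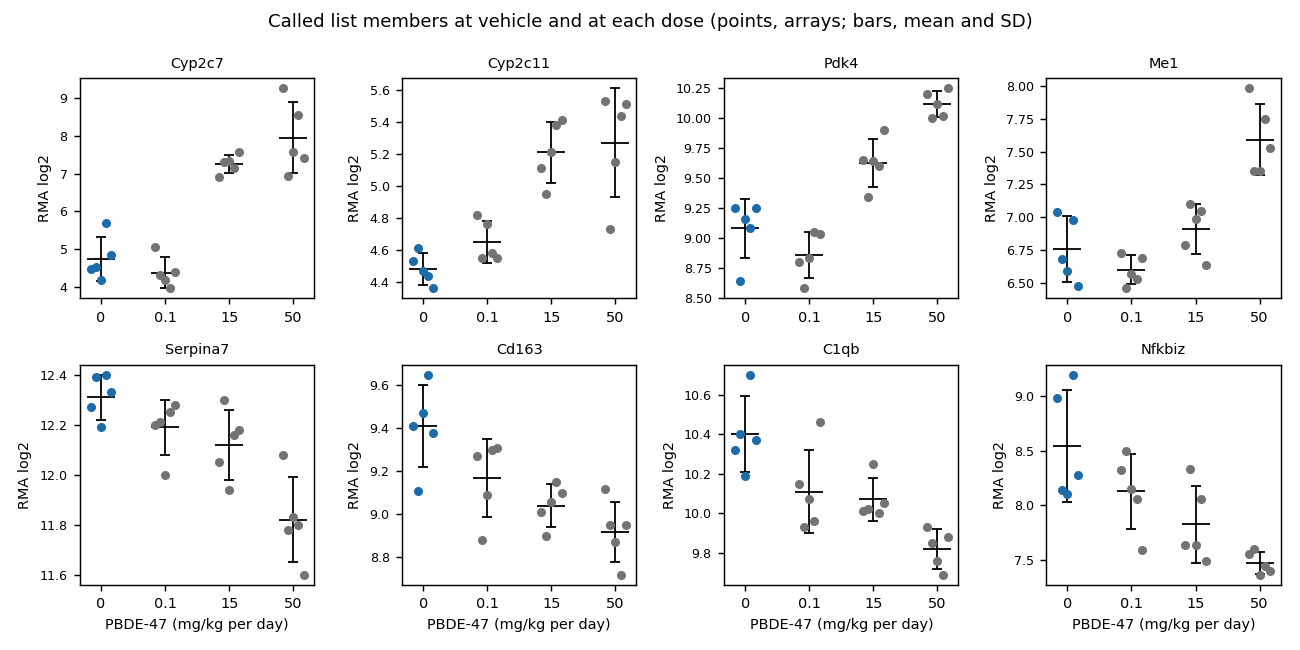
RMA log2 signal (y axis, a separate range for each gene) of 8 list members called at 50 mg/kg, by dose in mg/kg per day (x axis). Points are arrays (blue for vehicle), bars the mean and SD of 5 arrays, and at 50 mg/kg the Cyp2c7 arrays reach 9.26 and the Serpina7 arrays go down to 11.60.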

How the data were processed

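Each sample is 1 array, and its values were deposited as log2 signal that the authors made by RMA, per the submitters' processing notes; RMA subtracts background, sets the arrays to 1 distribution and summarises the probes of each set. No values were normalised again for the results given. Of 31099 probe sets 57 controls were left out, and of the 31042 used 20826 carried a single gene symbol in the platform annotation, 436 several and 9780 had no name here; 20758 matched RefSeq and 0 symbols were updated. A gene was read from its brightest single-symbol probe set. Means and SDs are over the 5 vehicle arrays, and a wide spread means an SD over 0.5 above the tissue-foreign limit. The 3 dose comparisons and the spread comparison were fitted by limma 3.58.1 (lmFit and eBayes, R 4.3.3) over all 20 arrays and all probe sets, with Benjamini-Hochberg adjustment at 0.05, and were tested on simulated data. The study's own comparison used another package at the same rate. Named genes were the 30 brightest, the 30 widest, index genes of the lists and list members called at a dose; any other list member is named for its level only. The arrays were taken by title, but the 35 lists and their genes were chosen with earlier results of these data known. What a list shows of a single array is thus a description. Counts of list genes highest or lowest on an array are given without the share of all genes. The number of arrays limits the precision. Same-numbered arrays of different groups did not deviate together (30 pairs, correlation -0.362 to 0.288), so the numbers were not taken to pair them. Tables were handled in Python 3.11.15 with pandas 2.3.3.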

Additional observations from a re-analysis of the deposited data

Results flagged for a closer look

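Single vehicle arrays lay far from the other 4, by the ratio of the gap to the whole range, in 51 of 332 gene results and 5 of 35 list results. Chance alone gives about 1 in 20 such results, but 30 of the genes were chosen for their spread over these same arrays, which gave 15 of the 51, and genes of a list are not independent, so the counts cannot be set against that share.

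Replicate 1 was apart in the list means of the urea cycle (12.10), cholesterol synthesis (8.50) and Kupffer cells (10.09). Among cholesterol genes it was lowest for Msmo1 (8.31), Sqle (7.56), Fdps (11.05), Lss (6.76) and Nsdhl (10.33), and likewise for the lipogenic genes Fasn (7.81) and Acly (9.40). It was highest for Arg1 (13.53), Got1 (11.73), the carnitine palmitoyltransferase gene Cpt2 (10.34), Scd (6.05), Gpc3 (9.83) and the X-linked Eif2s3 (9.51). It was lowest for Epx (5.73), Prg2 (7.05), Stab2 (9.81), Foxa1 (4.71) and Myh4 (2.38), the last within background.

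Replicate 2 was apart in the skeletal muscle list mean (8.17) and, at a low level, in that of adrenal, kidney and lung (4.77). Its muscle genes Acta1 (12.23), Myl11 (11.56), Tnnc2 (11.17), Cox8b (10.79), Tnni2 (9.97), Ckm (9.91), Fabp3 (9.65), Mybpc1 (9.56), Sln (8.95), Cryab (8.65), Des (8.57), Eno3 (8.41) and Trdn (6.06) were highest, as were the collagen gene Col1a2 (11.00) and, within background, Cd5 (3.53). Pdk4 was lowest on it (8.64).

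Replicate 4 was highest in plasma and acute phase genes, with Hp at 14.42, Fgb at 14.27, Fga at 14.24, Itih4 at 14.00, A2m at 13.89, Serpina3n at 13.39 and Lcn2 at 13.02. Gnat1 (6.76), a tissue-foreign gene, and Cxcr2 (4.17), below the limit, were also highest on it. Replicate 3 was highest in the replication genes Pcna (11.68), Mcm7 (10.55) and Tyms (7.11), and lowest in Serpina1 (14.22), Lhb (6.49) and RGD1309362 (4.09). Replicate 5 was highest in Ambp (14.01) and Adh1c (13.90).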

How the results depend on the processing

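Of 332 named genes none moved by more than 1 SD under quantile normalisation or equal array medians, and 64 did if a gene was read from the median of its probe sets. Leaving out 1 array moved 16 of the 332 levels by over 0.5 log2 units and 6 by over 1, all 6 muscle genes without replicate 2 (Acta1 from 5.27 to 3.53, Myl11 from 6.03 to 4.65). The limit matters most. With the highest tissue-foreign probe set as limit, 5091 probe sets were above it, and the genes above it were 9 of the hepatocyte factors, 3 of megakaryocytes, 1 of mast cells and eosinophils, 0 of B cells, 0 of T and NK cells, 7 of endothelium, 8 of stellate cells and fibroblasts, 0 of bile ducts, 0 of mesothelium, 1 of muscle, 1 of pancreas, 0 of stomach and intestine, 14 of the cell cycle and 2 of the clock. With the 90th percentile they were 8 of mast cells and eosinophils, 9 of muscle and 2 of stomach and intestine, and with the median over probe sets 1 of B cells. Without 1 vehicle array the muscle count was 2 to 7, with 2 without replicate 2 and 7 without replicate 3. Wide probe sets numbered 670 with no filter and 42 at an SD over 1.

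The counts of dose calls without 1 array were 0 to 1 at 0.1, 14 to 44 at 15 and 106 to 264 at 50 mg/kg. With only the 2 groups fitted they were 11 and 89 at 15 and 50 mg/kg, and without the arrays carrying muscle transcripts, chosen after seeing the data, 8 and 3. With the replicate number as a block they were 0, 36 and 235. The spread comparison called 33 to 140 without 1 vehicle array, 57 with the log of squared deviations, 7 over probe sets above the limit, 6 after quantile normalisation, 3 with the replicate block and 0 with deviations from the group median. The cause of these changes was not tested. Low signal limits what can be said of genes near the limit.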

Other observations

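Genes of the circadian clock, which sets the daily rhythm of liver metabolism, had signal in 13 of 15 measured cases (median 7.48). The exceptions were Nr1d1 (5.37 ± 0.42) and Bhlhe41 (3.94 ± 0.15), a pair of repressors of the clock. Dbp, an output factor of the clock, read 6.16, 7.31, 7.10, 6.89 and 7.62, and Per3, a clock repressor, read 6.58, 7.36, 7.23, 6.88 and 7.71. Both were lowest on replicate 1 and highest on replicate 5. Per2 read 7.60 on replicate 1 and 8.06 to 8.71 on the other 4. Cry1, another repressor, read 8.07 on replicate 1 and 7.24 to 7.41 on the others, so it ran the other way. The hour at which each liver was taken is not given in the sources used here.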
